A study of Zea mays with 4 samples.

Results

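The RNA carried on ribosomes was set against the whole RNA pool in endosperm of the maize rea1 mutant. The members were the libraries labelled rea1 mutant polysome and rea1 mutant total, 2 of the 4 libraries of the study, chosen by their labels, with every listed locus included. Both came from Zea mays endosperm at 15 days after pollination and carried the rea1 genotype. The other 2 libraries were total and polysome-bound RNA of wild type at the same age. Each fraction of each genotype was 1 library, so no value of rea1 has a replicate error. The design text of the series mentions triplicates, but each file holds a single value per locus, and nothing in the labels says whether that value is a mean, a pool or 1 of the triplicates. The labels give neither the lesion in rea1, nor the genetic background, nor how many kernels or ears were pooled.

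A polysome is an mRNA with several ribosomes translating it. Polysomes are heavy and pellet through a dense sucrose cushion, so the RNA of the pellet is enriched in messages in translation, although other heavy particles can pellet too. Endosperm is the nutritive tissue of the cereal kernel, and during grain filling its translation is dominated by a small set of storage-protein messages, the zeins, which come from families of near-identical, often neighbouring genes and are made on ribosomes bound to the endoplasmic reticulum. In yeast, Rea1 is an AAA ATPase needed for the release of assembly factors from the maturing large ribosomal subunit; the labels do not say how the maize mutant relates to it.

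Expression was deposited as FPKM, a fragment count divided by transcript length and by the mapped fragments of the library, for 29642 entries given only by position on B73 RefGen_v3. The files do not pair these positions with gene names and the gene table at hand is of another build, so no gene is named, the tissue label could not be checked against marker genes, and loci are given by position. Summed FPKM was 872920 in rea1 total RNA and 846544 in rea1 polysome-bound RNA. The number of entries above 0 was 26748 in total and 25886 in polysome-bound RNA. Read depth is not given; the most common ratio of the lowest values, total over polysome-bound, was 1.39, but only 17.9% of the 3389 low loci lay within 0.1 (log2) of it, so relative depth stayed uncertain. In bulk tissue, fewer cells of a type and less RNA per cell cannot be told apart, and each FPKM value is relative to the rest of its own library, so a ratio of polysome-bound to total FPKM is not the share of a message that is on ribosomes.

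Most messages made up a smaller share of the polysome library than of the total library, and some very abundant ones made up a much larger share. Ratios were taken as log2 of polysome-bound over total after adding 1 FPKM to each value, a scale that makes low loci look more alike than they are. Tested were the 17682 loci whose 4 libraries averaged at least 1 FPKM. The median ratio in rea1 was -0.47, and 77.1% of the loci lay below 0. The quartiles were -0.89 and -0.05, and the outer percentiles were -2.65 for the 1st and 1.59 for the 99th. In wild type the same loci had a median of -0.06, with 54.5% below 0.

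On rea1 polysomes 515 loci, 2.91% of those tested, were at least 2-fold higher than in total RNA, and 3582, or 20.3%, were at least 2-fold lower. Of these, 97 (0.549%) and 541 (3.06%) were at least 4-fold apart, where wild type had 108 (0.611%) higher and 166 (0.939%) lower. The balance of these counts depended on the scaling of the libraries. With median-of-ratios scaling, which moved the median ratio to -0.01, 1191 loci were higher and 1437 lower. The excess of lower loci was thus large with FPKM as deposited and small after that scaling.

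The higher loci had a smaller median in rea1 total RNA than the lower loci, a difference that choosing by the ratio favours. In wild-type total RNA the medians lay closer, and both were under the 6.59 FPKM of the tested loci within 2-fold in rea1. Median FPKM of the 3582 lower loci was 11.6 in total and 3.25 in polysome-bound RNA of rea1, and 5.02 and 2.83 in those of wild type. Median FPKM of the 515 higher loci was 3.30 in total and 12.3 in polysome-bound RNA of rea1, and 4.34 and 10.3 in those of wild type. Both rea1 libraries chose these loci, so their rea1 values are a description. The wild-type libraries took part only through the filter on the mean. Their ratio was above 0 for 86.4% of the higher loci, against 45.3% of all tested loci, and below 0 for 79.2% of the lower loci, against 54.5%.

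**Figure D1:**
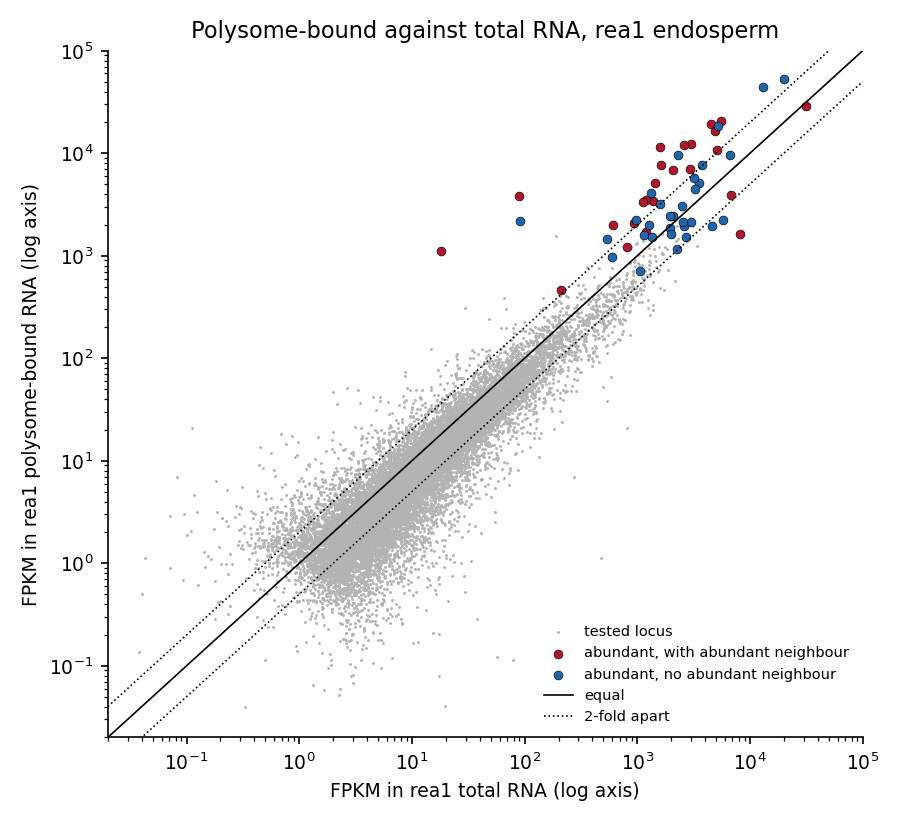
FPKM in rea1 polysome-bound RNA (y axis, log) against FPKM in rea1 total RNA (x axis, log) for the 17537 tested loci above 0 in both libraries; each point is a locus, red and blue points are abundant loci (wild-type mean of at least 1000 FPKM) with and without an abundant neighbour, and the lines mark equality and 2-fold differences. The grey cloud lies mostly under the line of equality, while most coloured points lie above it.

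The most abundant messages gained the largest share in the polysome library. To keep the choice apart from the rea1 ratio, loci were ranked by their mean in the wild-type libraries, and 57 loci reached 1000 FPKM there. These 57 held 24.1% of the summed FPKM of rea1 total RNA and 46.3% of rea1 polysome-bound RNA, a ratio of sums of 1.86. In wild type they held 64.7% and 61.5%, with a ratio of sums of 0.871. The sums of both genotypes include 2 loci on chromosome 7 that were listed at 0 in some library. In wild type, 1 was at 91299 FPKM in total and 0 in polysome-bound RNA, and the other was at 0 and 34692. Sums of the 57 were not taken without these 2, so the direction in wild type is uncertain. In rea1, 29 of the 57 were higher on polysomes by 2-fold or more and 4 were lower by as much, or 50.9% and 7.02% against the 2.91% and 20.3% of all tested loci. Their median log2 ratio was 1.005, against -0.47 over all tested loci. In wild type 7 of them were higher and 4 lower, and the median was -0.02. With median-of-ratios scaling 38 of the 57 were higher and 2 lower in rea1.

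Among the most abundant messages of rea1 polysomes, 1 locus stood above all others. Chromosome 6, 44541825 to 44542774, was at 19894 FPKM in total and 52920 in polysome-bound RNA of rea1, a ratio of 2.66, and at 38973 and 47790 in wild type. The next was chromosome 2, 183991961 to 183993036, at 12994 in total and 44214 in polysome-bound RNA of rea1, a ratio of 3.40, and at 41136 and 43734 in wild type. In both cases the polysome values of the genotypes were close and the total value of rea1 was the lowest of the 4 libraries. Chromosome 4, 21334901 to 21335970, which has no abundant neighbour either, was at 5166 in total and 18398 in polysome-bound RNA of rea1, and at 52408 and 43299 in wild type. Here both rea1 values were under both wild-type values, and the ratio within rea1 was 3.56.

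Of the 10 most abundant loci of the rea1 polysome library, 9 were at least 2-fold higher there than in total RNA, and none lower; abundance in 1 of the compared libraries chose them, so this count is a description. The remaining one, chromosome 7, 120233940 to 120236057, led the total library with 31354 FPKM and was at 28979 in polysome-bound RNA, a ratio of 0.924. Its log2 ratio was -0.11 as deposited and 0.43 with median-of-ratios scaling, so its direction depended on the scaling. In wild type it was at 34692 in polysome-bound RNA and listed at 0 in total RNA, so no wild-type ratio can be given. Of the 10 most abundant loci of the rea1 total library, chosen the same way, 4 were at least 2-fold higher on polysomes and 3 at least 2-fold lower, and with median-of-ratios scaling 5 and 2. The lists shared 5 loci.

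Outside the 10 leading polysome loci, other abundant messages went in either direction. Chromosome 1, 178503667 to 178505233, was 8th in total RNA at 5749 FPKM and 33rd in polysome-bound RNA at 2247, a ratio of 0.391, and was at 5361 and 3841 in wild type. With median-of-ratios scaling its log2 ratio moved from -1.35 to -0.81, which is less than 2-fold. Chromosome 1, 197301249 to 197304338, 7th in total RNA at 6642 FPKM, was at 9581 in polysome-bound RNA, a ratio of 1.44. With the same scaling its log2 ratio moved from 0.53 to 1.07, which is past 2-fold. Its wild-type values, 4531 and 5218, were both under those of rea1. The highest ratio among abundant loci without an abundant neighbour, picked out after the values were seen, belonged to chromosome 8, 108689439 to 108690609, at 90.8 in total and 2189 in polysome-bound RNA of rea1, a ratio of 24.1. It was at 212 and 1952 in wild type, so it was higher on polysomes in both genotypes.

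Abundant loci that neighbour each other were also summed as groups. Loci whose 4 libraries averaged 1000 FPKM or more were joined across gaps of up to 500 kb, which gave 6 groups holding 26 loci, all among the 57. Near-identical copies can share reads, so the value of any single locus in a group is uncertain. In rea1 19 of the 26 were higher on polysomes by 2-fold or more; their median log2 ratio was 1.56. Lower by at least 2-fold were 2, of which 1 was listed at 0 on polysomes. Their summed FPKM was 105839 in total and 189544 in polysome-bound RNA, a ratio of 1.79, and without the 2 loci listed at 0 in some library it was 59895 and 160565, a ratio of 2.68. The 31 abundant loci with no such neighbour had a median log2 ratio of 0.49, with 10 at least 2-fold higher and 2 lower. Their ratio of sums was 1.93, and without the 2 that were most abundant in wild type it was 1.64.

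The largest group, 13 loci on chromosome 4, falls into 2 stretches that behaved differently. In the stretch at 5.08 to 5.18 Mb, 8 loci had rea1 log2 ratios from 0.29 to 5.87 and wild-type ratios from -0.71 to 4.25. In the stretch at 5.52 to 5.56 Mb, 5 loci had rea1 ratios from 1.57 to 2.24 and wild-type ratios from -0.09 to 0.42. All 13 log2 ratios were above 0 in rea1, and 10 loci were at least 2-fold higher. The first stretch summed to 12279 FPKM in total and 37715 in polysome-bound RNA of rea1, a ratio of 3.07, against 1.55 in wild type. The second summed to 11934 and 44816, a ratio of 3.76, against 1.04 in wild type. The second stretch was therefore even among its loci in both genotypes, and the first was uneven in both.

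Under the rule for named loci, which asks for values above 0 in every library, a mean of 5 FPKM or more and unshared coordinates, the highest ratios came from the start of that first stretch. Chromosome 4, 5079765 to 5080833, was at 18.1 FPKM in total and 1116 in polysome-bound RNA of rea1, and at 175 and 3332 in wild type. Its log2 ratio was 5.87 in rea1 and 4.25 in wild type. Its neighbour at 5083079 to 5084155 was at 88.9 and 3868 in rea1 and at 866 and 11852 in wild type, with log2 ratios of 5.43 and 3.77. Both loci are about 1 kb long and both were far higher on polysomes in each genotype. Other members of the stretch, such as chromosome 4, 5122439 to 5123472, at 1583 in total and 11453 in polysome-bound RNA of rea1, were also higher in both genotypes, with log2 ratios of 2.85 and 1.82.

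The 4 loci at 18.76 to 18.88 Mb of chromosome 7 went in different directions although they are 723 or 726 bp long and lie side by side. The locus starting at 18877460 was at 4501 FPKM in total and 19471 in polysome-bound RNA of rea1, a ratio of 4.33. The locus starting at 18779575 was at 8135 and 1639, a ratio of 0.202. The locus starting at 18755936 was at 6812 and 3930, a ratio of 0.577. The fourth, starting at 18865424, was at 14590 FPKM in total and listed at 0 in polysome-bound RNA, as it was in wild type (91299 and 0). A value of exactly 0 may be a failed estimate where copies share reads, so no fold is given. In sum the group was at 34039 FPKM in total and 25040 in polysome-bound RNA, and without the locus listed at 0 at 19449 and 25040, so the direction of the sum rests on that 1 entry.

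The other groups were more even, apart from the pair at 120.21 to 120.24 Mb of chromosome 7. The 3 loci at 29.95 to 30.09 Mb of chromosome 4 had rea1 log2 ratios from 1.55 to 2.05. The 2 loci at 161.79 to 162.01 Mb of chromosome 1 had 1.26 and 1.32, and the 2 at 39.09 Mb of chromosome 6 had 1.14 and 1.16. Of the pair at 120.21 to 120.24 Mb of chromosome 7, the locus starting at 120206897 was at 1621 FPKM in total and 7654 in polysome-bound RNA, a log2 ratio of 2.24, beside the leading locus of the total library described above, at -0.11.

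**Figure D2:**
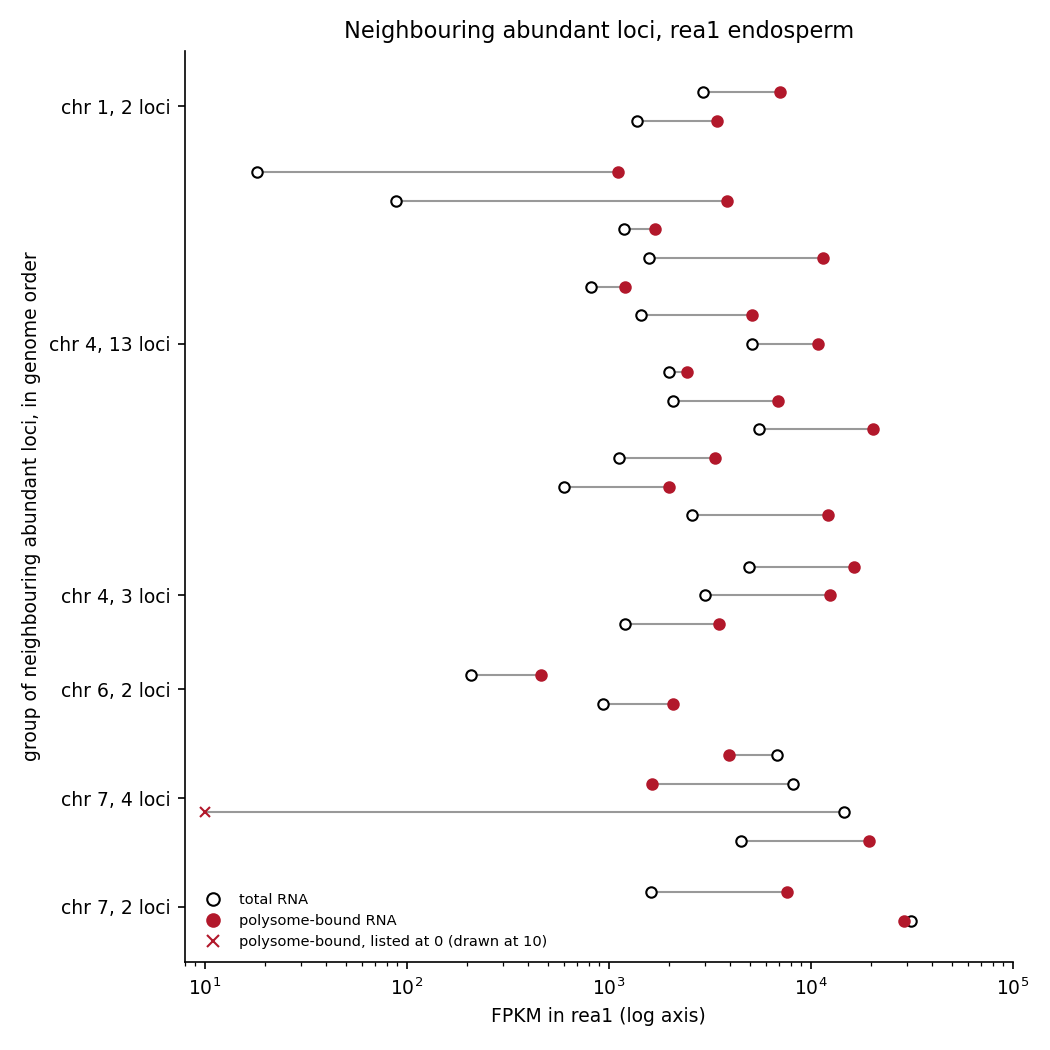
FPKM in rea1 (x axis, log) of the 26 abundant loci that lie within 500 kb of another, 1 row per locus in genome order within its group; open circles are total RNA, red circles polysome-bound RNA, and a cross marks the locus listed at 0 in polysome-bound RNA. In 22 of the 26 the polysome value lies to the right; the 4 exceptions are all on chromosome 7.

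With FPKM as deposited, the median ratio was below 0 in every abundance class but the top one. For the 10303 tested loci with a wild-type mean of 1 to 10 FPKM the rea1 median log2 ratio was -0.50, for the 5693 loci at 10 to 100 it was -0.37, and for the 619 loci at 100 to 1000 it was -0.52. The matching wild-type medians were -0.11, 0.01 and 0.15. The 1010 loci under 1 FPKM in wild type had a rea1 median of -0.91, but they passed the filter only through high values in rea1. With median-of-ratios scaling the medians of the classes from 1 FPKM up were -0.06, 0.15, 0.02 and 1.54, so the sign changed at 10 to 100 and at 100 to 1000 FPKM, and not at 1 to 10 or in the top class. The class at 100 to 1000 FPKM stood at -0.0016 with trimmed-mean scaling, so its sign differed between scalings.

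Below the top class, each class held a smaller share of the polysome library than of the total library in rea1. Loci of 100 to 1000 FPKM in wild type held 33.3% of the summed FPKM in total and 23.0% in polysome-bound RNA of rea1, and 14.3% and 15.8% in wild type. Loci of 10 to 100 FPKM held 32.4% and 24.3% in rea1, and 16.1% and 17.8% in wild type. Loci of 1 to 10 FPKM held 9.23% and 5.99% in rea1, and 4.57% and 4.56% in wild type. The shares of a library sum to the whole, so these values are not independent of those of the 57 abundant loci.

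Short loci were more often apart in either direction. Of the 78 tested loci under 300 bp, 64.1% were lower on polysomes in rea1 by 2-fold or more and 7.69% higher. The share of lower loci was 40% at 300 to 600 bp, 31.4% at 600 to 1200 bp, 24.5% at 1200 to 2400 bp, 17.7% at 2400 to 4800 bp, 17.2% at 4800 to 20000 bp and 16.6% at 20000 bp or more. The share of higher loci was 10% at 300 to 600 bp and 1.52% at 4800 to 20000 bp. These shares moved with library scaling. After median-of-ratios scaling, 56.4% of the loci under 300 bp and 5.46% of those at 4800 to 20000 bp were lower, and 7.69% and 4.58% were higher. Length here is that of the locus with its introns.

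Within both abundance classes compared, short loci had the larger share of lower loci. Among loci of 10 to 100 FPKM in wild type, 39.2% of the 97 at 300 to 600 bp were at least 2-fold lower in rea1, against 9.98% of the 2284 at 4800 to 20000 bp. Among loci of 1 to 10 FPKM the shares were 31.8% of 151 and 20.3% of 3693, but above 2400 bp the share did not fall with length, at 18.4% from 2400 to 4800 bp and 19.5% at 20000 bp or more. In wild type the same classes gave 22.7% and 2.80%, and 27.2% and 6.61%. Among the 57 abundant loci, the 33 under 1400 bp had a ratio of sums of 2.30 in rea1 and 0.777 in wild type. The 24 of 1400 bp or more had 1.26 and 1.45. The length limit was chosen after the values were seen. Each of these classes includes 1 locus listed at 0 in some library. In wild type that locus was at 91299 FPKM in total and 0 in polysome-bound RNA in the shorter class, and at 0 and 34692 in the longer. Ratios without them were not taken, so the opposite directions in wild type are uncertain.

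**Figure D3:**
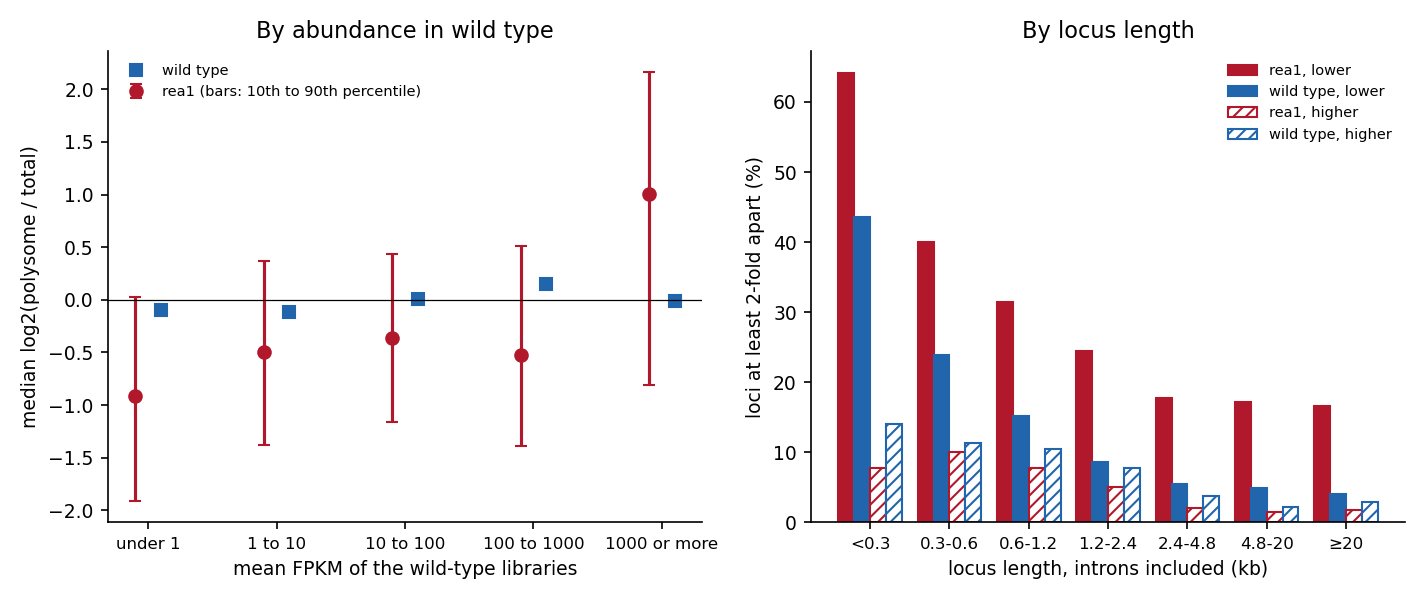
Left, median log2 ratio of polysome-bound over total RNA (y axis) by class of mean FPKM in wild type (x axis), with red circles for rea1, bars from the 10th to the 90th percentile of loci, and blue squares for wild type; right, percent of tested loci at least 2-fold apart (y axis) by locus length in kb (x axis), filled for lower and hatched for higher on polysomes. The top abundance class stands at 1.005 in rea1 and -0.02 in wild type, and the share of lower loci is 64.1% in the shortest and 16.6% in the longest class in rea1, as deposited.

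The lower loci of rea1 were spread over the genome. Across the 10 chromosomes the median log2 ratio lay between -0.50 and -0.44, the share of lower loci between 18.4% and 23.4%, and the share of higher loci between 2.48% and 4.37%. In 571 windows of 30 neighbouring tested loci the window median was below 0 in all 571, and 0 to 14 loci per window were lower. These values are for FPKM as deposited, where the median over all tested loci was -0.47. With median-of-ratios scaling that median was -0.0068, and the windows were not computed with it. Of the 3499 lower loci with a next tested locus, 22.6% had a next locus that was lower too, against 20.3% of all pairs. Higher loci lay next to each other more often: 7.43% of 498, against 2.89% of all pairs, and 5.97% of 469 against 2.83% without the 57 abundant loci. These are counts of these libraries, and neighbouring copies that share reads were not separated from other neighbours.

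The lowest ratios under the rule for named loci were on chromosomes 4, 2 and 7. Chromosome 4, 124589273 to 124591934, was at 79.0 FPKM in total and 0.115 in polysome-bound RNA of rea1, and at 0.180 and 0.110 in wild type. Only the rea1 total library was high at this locus, and the other libraries were near 0. Its log2 ratio of -6.16 was -4.04 with a pseudocount of 5 and -8.52 with one of 0.1. Chromosome 2, 230148124 to 230150596, was at 811 and 20.7 in rea1 and at 350 and 36.6 in wild type, with log2 ratios of -5.22 and -3.22. Chromosome 7, 18954749 to 18955697, 76.6 kb beyond the group at 18.76 to 18.88 Mb, was at 277 and 6.90 in rea1 and at 1712 and 15.5 in wild type, with log2 ratios of -5.14 and -6.70. For the last 2 loci the total value was the higher one in both genotypes.

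Some tested loci were listed at 0 in 1 rea1 library alone. In polysome-bound RNA 100 loci were at 0 while above 0 in total RNA, with a median of 5.53 FPKM there and a maximum of 14590, followed by 178. The median length of these 100 loci was 848 bp, and 68 of them were also listed at 0 in wild-type polysome-bound RNA. In total RNA 34 loci were at 0 while above 0 in polysome-bound RNA, with a median of 3.68 and a maximum of 83.6 FPKM, and 19 of them were also at 0 in wild-type total RNA. No fold is given for loci listed at 0. The share of all tested loci at 0 in each wild-type library is not given here, so neither overlap is read as an excess.

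Entries that share a position gave a further view of uncertainty. Of the tested entries 1009 shared their coordinates with another, and at 340 positions 2 or more entries were tested. The median gap between the highest and the lowest log2 ratio at such a position was 0.53, and at 76 positions it was at least 1. At 2 positions 1 entry was at least 2-fold higher and another at least 2-fold lower. What distinguishes entries of a position is not given.

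Organelle loci were at the edge of detection. The 51 mitochondrial entries summed to 30.8 FPKM in total and 12.4 in polysome-bound RNA of rea1, and 36 of them were lower on polysomes, 12 higher and 3 equal. Over all tested loci, 77.1% were lower in rea1, so this count shows no excess of lower entries. Only 1 of the 51 passed the filter for tested loci. A single entry, at 262384 to 262761 of the mitochondrial genome, held 10.5 of the total and 5.12 of the polysome value, and the rest had a ratio of 0.357. The 22 plastid entries summed to 1.63 and 1.96 FPKM. Mitochondria and plastids translate with their own ribosomes, and at these levels the plastid ratio is not interpretable.

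The ratios of rea1 and wild type, which share no library, went together in part. Across the 17682 loci, which are not independent replicates and share the length and abundance patterns above, Pearson's r between the log2 ratios was 0.565 and Spearman's rho was 0.495. Of the 515 loci higher in rea1, 250 (48.5%) were also at least 2-fold higher in wild type, where 4.51% of tested loci were. Of the 3582 lower in rea1, 874 (24.4%) were lower in wild type, where 6.97% were. Seen from wild type, these were 31.4% of its higher and 70.9% of its lower loci.

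The distance between the genotypes' ratios is the only gauge of error these libraries allow. The difference of the rea1 from the wild-type log2 ratio had a median of -0.37 and a robust SD (scaled median absolute deviation) of 0.57. The robust SD was 0.58 for loci of 1 to 3 FPKM, 0.50 at 10 to 30, 0.76 at 100 to 1000 and 1.11 for the 70 loci averaging 1000 FPKM or more. It holds genotype differences as well as noise. This SD belongs to the difference of 2 log2 ratios, so it does not give the error of a single ratio in rea1.

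A limma fit of polysome-bound against total RNA over all 4 libraries had genotype as a block. Its error came from the distance between the genotypes' ratios, with 1 residual degree of freedom. A trend over loci by abundance added 20.9 prior degrees of freedom. The SE of a locus was thus mostly that of loci of similar abundance, not the spread of its own ratios. The fit tests the mean of both genotypes and counts a genotype difference as error. It called 333 loci higher (1.88%) and 1309 lower (7.40%) at a Benjamini-Hochberg adjusted p under 0.05. Of the 515 loci higher in rea1 it called 275 higher, and of the 3582 lower ones 1249 lower. The rea1 libraries are part of the fit, so these counts are not a second test. Nor are the p-values of the single loci below, which were named for their rea1 values. A small p does not guard against entries that may be failed estimates. The chromosome 7 locus starting at 18865424, listed at 0 on polysomes in both genotypes, had a limma adjusted p of 1.69e-14. The loci on chromosome 4 starting at 5079765 and 5083079 had adjusted p-values of 2.77e-06 and 0.000738 in limma, with mean log2 ratios of 5.06 ± 0.55 and 4.60 ± 0.81 (SE, 4 libraries). The locus on chromosome 2 starting at 230148124 had -4.22 ± 0.47 with a limma adjusted p of 3.20e-06, and the locus on chromosome 7 starting at 18954749 had -5.92 ± 0.42 with 4.54e-09. The locus on chromosome 4 starting at 124589273 had -3.13 ± 0.74 with a limma adjusted p of 0.00918. That mean rests on the rea1 total library, through which alone the locus passed the filters on the mean. Its wild-type log2 ratio was -0.09, so its call does not show a lower value on polysomes in both genotypes. For the leading polysome locus on chromosome 6 the mean was 0.85 ± 2.63 with a limma adjusted p of 0.892. Its own log2 ratios, 1.41 in rea1 and 0.29 in wild type, lay closer together than that SE.

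**Figure D4:**
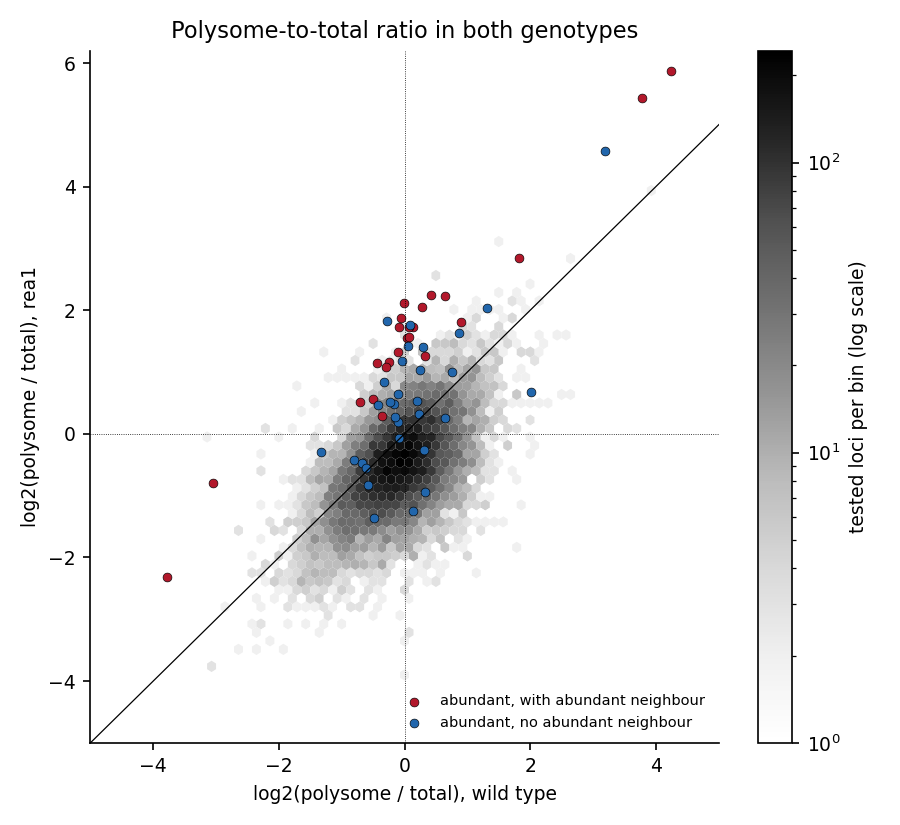
Log2 ratio of polysome-bound over total RNA in rea1 (y axis) against wild type (x axis) for the tested loci, with grey hexagons shaded by the number of loci on a log scale, red and blue points for abundant loci with and without an abundant neighbour, and a line of equality; 14 loci lie outside the axes. Most loci lie under the line, by a median of -0.37, and most abundant loci lie above it.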

How the data were processed

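FPKM was deposited by the authors, 1 value per locus and library, in 4 files. Bowtie 0.12.2 and B73 RefGen_v3 are named in the submitters' processing notes; which program, annotation and denominator gave FPKM is not given in the sources used here. Per the labels' protocols, both fractions came from the same amount of powder, the polysomes by a sucrose-cushion spin. Rows had identical loci and order in all files. Starts were read as counted from 0 (48 of 73 organelle loci then had lengths that are multiples of 3, against 16) and are printed from 1.

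Loci averaging at least 1 FPKM over the 4 libraries were compared as log2(FPKM + 1) ratios and counted at 2-fold. Named were the 2 highest and 2 lowest ratios at a mean of at least 5 and of at least 100 FPKM (above 0 in all libraries, coordinates not shared; 10178 and 831 eligible), and the 10 most abundant loci of each rea1 library; other loci were named after their values were seen. The members and lists were chosen with earlier results of these data known. Alternatives were other pseudocounts, filters, scalings, entry sets and group limits. Python 3.11.15, numpy 2.4.6, pandas 2.3.3, matplotlib 3.10.9, R 4.3.3 and limma 3.58.1 (trended eBayes) were used. Counting, scaling and the fit were tested on simulated data. The data simulated for the fit had the same noise level at every locus, no genotype difference and no values at 0. They therefore do not show how well the fit performs on these libraries.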

Additional observations from a re-analysis of the deposited data

Results flagged for a closer look

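These differences in direction between the genotypes were not tested, since each ratio rests on 1 library a side. By 2-fold or more, and with FPKM as deposited, 70 of the 17682 tested loci were lower on polysomes than in total RNA in rea1 but higher in wild type. Another 10 were higher in rea1 but lower in wild type. The 70 were 1.95% of the loci lower in rea1, while 4.51% of all tested loci were higher in wild type. The 10 were 1.94% of the loci higher in rea1, while 6.97% of all tested loci were lower in wild type. Both kinds were thus rarer than the share over all tested loci. The sum of the 2 abundant loci at 39.09 Mb of chromosome 6 had a ratio of 2.23 in rea1 and 0.798 in wild type. The 3 loci above 0 at 18.76 to 18.88 Mb of chromosome 7 had a ratio of 1.29 in rea1 and 0.341 in wild type. With the entry listed at 0 included, the ratios were 0.736 and 0.182, both below 1. The difference in direction of that group thus rests on leaving out 1 entry.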

How the results depend on the processing

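Scaling and the treatment of low loci moved the counts. In the order of median-of-ratios scaling, trimmed-mean scaling and equal sums without the 50 most abundant loci, higher loci numbered 1191, 1150 and 1125, lower loci 1437, 1483 and 1461, and the median log2 ratio was -0.0068, -0.024 and -0.026. The share lower among loci of 4800 bp or more was then 5.39%, 5.62% and 5.48%, and the share higher 4.60%, 4.37% and 4.20%. A pseudocount of 5 gave 213 higher and 1464 lower loci, a median of -0.30, 27.1% lower and 3.87% higher under 600 bp, and 5.40% and 0.529% at 4800 bp or more. A minimum mean of 10 FPKM gave 224 higher and 1233 lower loci and a median of -1.79 for loci under 1 FPKM in wild type. Without a filter the median was -0.26 over all loci and -0.099 for loci under 1 FPKM in wild type, and 25.8% were lower and 5.22% higher under 600 bp. The paired fit called 167 higher and 481 lower loci without a filter, 176 and 502 at 10 FPKM, 487 and 689 with median-of-ratios scaling, 640 lower with trimmed-mean scaling and 547 higher with equal sums without the 50 most abundant loci. The causes were not tested, except that stricter filters leave fewer loci. The ratio of sums of the 26 grouped loci stayed between 1.65 and 2.68 in all its alternatives, of which the one without loci listed at 0 was added after seeing the data. Of the 19 named loci with a ratio, 18 moved by under 1.5-fold in every alternative in which they were present. With the scalings 1 turned direction and 2 crossed the 2-fold limit. The count of 18 says little about stability. Filters and entry sets cannot change the ratio of a locus. The scalings shift every FPKM ratio by a common 0.52 to 0.54 (log2), which is under 1.5-fold. No paired analysis by replicate number was possible because the labels give none and each group is 1 library. Depth is not given, so no counting error can be stated.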
